A study of Mus musculus with 2 samples.

Results

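Noncycling Müller glia were examined in single-cell RNA sequencing of mouse retinas at postnatal day 7. The cells were chosen by detected genes, with the threshold values set on the same counts that are described here. A member needed at least 2000 UMIs (unique molecular identifiers, one per captured transcript) outside mitochondrial genes. It also needed a UMI of at least 6 of the 10 glial genes Slc1a3, Glul, Clu, Dkk3, Sox9, Apoe, Rlbp1, Car14, Crym and Sparc. Fewer than 2 of the 10 cell cycle genes Top2a, Ccnb1, Cdk1, Ube2c, Birc5, Cenpf, Tk1, Pclaf, Uhrf1 and Cdc6, and fewer than 2 of the 5 neurogenic genes Neurog2, Dll1, Dll3, Atoh7 and Olig2, could be detected. In all, 578 of the 5678 cells with at least 2000 UMIs met the rule, out of 7103 cells analysed.

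The series compared 1 control library with 1 Mettl3-CKO library, in which Mettl3 was conditionally knocked out with Six3-Cre and a floxed Mettl3 allele. Six3-Cre drives recombination in retinal progenitor cells (RPCs) from embryonic stages, so that Müller glia and their sister neurons descend from cells exposed to CRE. The deletion was examined in the central retina, whereas whole retinas were digested with papain for these libraries. The controls were littermates whose exact genotype is given only as Ctrl. Each library pooled 2 retinas from 2 pups, and the deleted exons are not given in the sources used here. With 1 library per group, no test between the conditions was possible. Cells of 1 library are not replicates, and every interval below is a 95% interval for counting error only.

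METTL3 is the enzyme that methylates adenosines of mRNA to m6A (N6-methyladenosine), a mark that many transcripts carry and that is known to shorten the life of a share of them. Müller glia are the main glia of the retina and the last cell type that RPCs produce. They span the tissue from its inner to its outer border, seal the outer limiting membrane, clear glutamate and potassium, pass metabolites to neurons and recycle chromophore for cones. At this age they have recently left the cell cycle, share many transcripts with the late RPCs from which they arise, and are still acquiring the genes of mature glia.

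The control library gave 319 members among 3093 cells of sufficient depth, and the Mettl3-CKO library gave 259 among 2585. Members therefore made up 10.3% (9.26 to 11.4) of control cells and 10.0% (8.89 to 11.2) of Mettl3-CKO cells, and the second share over the first gave 0.971 (0.832 to 1.13). The interval includes equal shares as well as a moderately larger or smaller share in the Mettl3-CKO library. Cells with at least 6 glial genes that were kept out for cell cycle genes were more frequent in the Mettl3-CKO library, at 249 cells (9.63%) against 150 control cells (4.85%), a ratio of 1.99 (1.63 to 2.42). Those kept out for neurogenic genes alone made up 4.24% of control and 4.26% of Mettl3-CKO cells, a ratio of 1.0 (0.784 to 1.29). Glial gene detection and cycling are part of the rule, so these shares are a description of where its thresholds fell.

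Depth was similar in the members of both libraries. The median was 8978 UMIs and 3414 genes in control members and 8263 UMIs and 3303 genes in Mettl3-CKO members, with a lowest member at 2005 and 2016 UMIs. No cell barcode was shared between the members of the libraries, and 5 were shared among all cells analysed. Control members with 6, 7, 8, 9 and 10 glial genes numbered 36, 37, 96, 130 and 20, and Mettl3-CKO members numbered 35, 34, 78, 76 and 36. Just outside the rule, 41 control and 32 Mettl3-CKO cells held 5 glial genes and met its other terms. Their median level of the 10 genes was 20.5 and 19.4 UMIs per 10000, against 44.5 and 41.8 in members with 6.

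The glial name was checked against markers of other cell types. At least 4 markers of rods were detected in 33 control and 29 Mettl3-CKO members, and at least 4 of 8 photoreceptor and bipolar precursor genes, a list added after the data were seen, in 45 and 33. At least 4 astrocyte markers were seen in 11 and 3 members, retinal pigment epithelium markers in 5 and 1, cone markers in 4 and 1, bipolar markers in 3 and 1 and amacrine markers in 0 and 1. No member of either library held 4 microglial or 4 endothelial markers. Summed over its list, the level of rod markers, in CPM (UMIs scaled to a common total of 1e+06 outside mitochondrial genes), was 1062 CPM in control and 1502 CPM in Mettl3-CKO members, of cone markers 555 and 315, of astrocyte markers 621 and 431, of pigment epithelium markers 457 and 46.7 and of microglial markers 3.01 and 8.46 CPM. Among members, 18 control cells (5.64%) and 37 Mettl3-CKO cells (14.3%) had at least 5 genes of DNA replication, which the cell cycle genes of the rule had not removed. Leaving out every member with any of these signs kept 233 control and 182 Mettl3-CKO cells, referred to below as core members, which were 7.53% and 7.04% of cells. The neurogenic genes of the rule were not among these signs. None of them was detected in 207 control and 184 Mettl3-CKO members, and core members may include the others. Values in core members are given beside list medians that they moved by 0.1 or more, and the part of other cell types in a result was not tested further.

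The pooled pups differed between the libraries in sex-linked transcripts. Xist, the transcript of the inactive X chromosome, was detected in 0 of 319 control members, which allows a share of up to 0.94%, and in 137 of 259 Mettl3-CKO members. Y-linked transcripts were found in 258 control and 103 Mettl3-CKO members. The labels give no sex, so values of the gene lists are also given for Mettl3-CKO members with Xist and for the 122 without, both against the same control members, where the median moved by 0.1 or more. These subsets are not groups of the study. Of the Mettl3-CKO members, 10 held both Xist and a Y-linked UMI, and 29 held neither. The split is thus by detection of Xist, which also depends on depth, and does not assign a sex to each cell.

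Mettl3 itself (chromosome 14, 52294841 to 52305128, GRCm38) gave 95 UMIs in control and 71 in Mettl3-CKO members. Its level was 31.7 CPM (25.7 to 38.8) in control and 31.6 CPM (24.7 to 39.9) in Mettl3-CKO members, a log2 ratio of -0.01 (-0.47 to 0.45). The libraries read the 3′ end of transcripts, which may lie outside the deleted exons, so that Mettl3 checks neither the label nor the extent of the deletion in these cells.

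Across the transcriptome, 7270 genes with at least 100 UMIs over the members of both libraries were compared, and their median log2 ratio of Mettl3-CKO over control was 0.04, with 4038 genes higher and 3232 lower. At least 2-fold higher levels in Mettl3-CKO members were found for 65 genes, 0.894% of those compared, and at least 2-fold lower levels for 63 genes, 0.867%. In core members, 55 of 5675 genes (0.969%) were 2-fold higher and 27 (0.476%) were 2-fold lower. Of the lower genes in all members, 21 were seen in under 10% of the members of both libraries, as was 1 of the higher genes. A part of the lower group was thus set by few cells, among them cells with markers of other types. The melanosome gene Pmel had 290 UMIs in 8 control members and 6 UMIs in 2 Mettl3-CKO members, and the thyroxine carrier Ttr, abundant in pigment epithelium, had 1031 UMIs in 13 and 93 UMIs in 3. Gfap, the intermediate filament of retinal astrocytes, had 91 UMIs in 10 control members and 7 UMIs in 2 Mettl3-CKO members. It was just under the count minimum and so is not among the genes compared.

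Glial genes were lower as a group in Mettl3-CKO members. Of 20 glial genes that the rule had not used, 18 passed the count minimum, 16 of these were lower and 2 higher in Mettl3-CKO members, and 2, Npy and Mlc1, were at least 2-fold lower. Their median log2 ratio was -0.59, against 0.04 for all genes compared. The median was -0.64 in core members, -0.63 in members with Xist and -0.54 in those without. Among glial marker cells with cell cycle genes it was -0.30, among those with neurogenic genes -0.75 and among rods -0.23. Rods were chosen by rod markers and by holding few of the 10 glial genes of the rule. Rod markers had a median log2 ratio of 2.71 in the cycling glial marker cells and 1.68 in the neurogenic ones, against 0.49 in members. Both classes thus differed between the libraries in rod transcripts, which limits their medians for every list below. The differences between these cell classes were not tested.

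The most abundant glial gene outside the rule was Dbi, which encodes an acyl-CoA binding protein that also modulates GABA receptors. It stood at 7094 CPM in control and 4344 CPM in Mettl3-CKO members, a log2 ratio of -0.71 (-0.74 to -0.67). Vim, the main intermediate filament of Müller glia, stood at 1608 and 973 CPM, a log2 ratio of -0.72 (-0.80 to -0.65). The secreted growth factor Ptn stood at 1681 and 1048 CPM (-0.68), and Mfge8, a bridge protein for the uptake of dying cells, at 1035 and 659 CPM (-0.65). All 4 were abundant enough that counting error was small beside the difference.

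Cd9, a membrane tetraspanin of glia, stood at 519 CPM (493 to 545) in control and 260 CPM (239 to 282) in Mettl3-CKO members, a log2 ratio of -1.0 (-1.14 to -0.86). Npy, a neuropeptide of young Müller glia, stood at 264 and 106 CPM, a log2 ratio of -1.31 (-1.53 to -1.10). When each cell was thinned to 2000 UMIs, Cd9 was detected in 58.3% of control and 34.4% of Mettl3-CKO members, and in 1.59% and 1.1% of rods, which should lack it. Npy was detected in 26.3% and 14.3% of members and in under 1% of rods of either library. Mlc1, a membrane protein gene of glial junctions, stood at 60.5 and 9.35 CPM (-2.69) from 24 and 7 cells, with 65.7% of its control UMIs in 5 cells and only 13 and 3 UMIs in core members. Not every glial gene was lower. Kdr, a receptor for vascular endothelial growth factor, stood at 579 and 653 CPM (0.17), and Cp, the copper carrier ceruloplasmin, at 721 and 729 CPM (0.01).

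The 10 genes of the rule chose the cells, so their levels are a description. Their median log2 ratio was -0.37, with 7 lower and 3 higher, and it was -0.48 with Xist and -0.23 without. Rlbp1, the retinaldehyde carrier of the glial visual cycle, stood at 1528 CPM (1484 to 1573) in control and 862 CPM (824 to 901) in Mettl3-CKO members. Crym, a thyroid hormone binding protein, stood at 2538 and 1321 CPM. Both were close to 2-fold apart between the libraries even though detection of either gene helped a cell to qualify. Slc1a3, the glutamate transporter of Müller glia, stood at 1208 and 933 CPM, Apoe, a lipid carrier, at 1924 and 1464 CPM, and Dkk3, a secreted Wnt-related glycoprotein, at 636 and 493 CPM. Glul, the glutamine synthetase, stood at 421 and 444 CPM and the gliogenic factor Sox9 at 1039 and 1101 CPM, so these 2 defining glial genes were near equal. Clu, a secreted chaperone, was set by few cells, with 58.9% of its control UMIs in 5 cells, and its direction turned between subsets, with a log2 ratio of 0.36 in all members, -0.72 with Xist and 1.06 without. In core members it had 21 and 66 UMIs, under the count minimum.

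**Figure D1:**
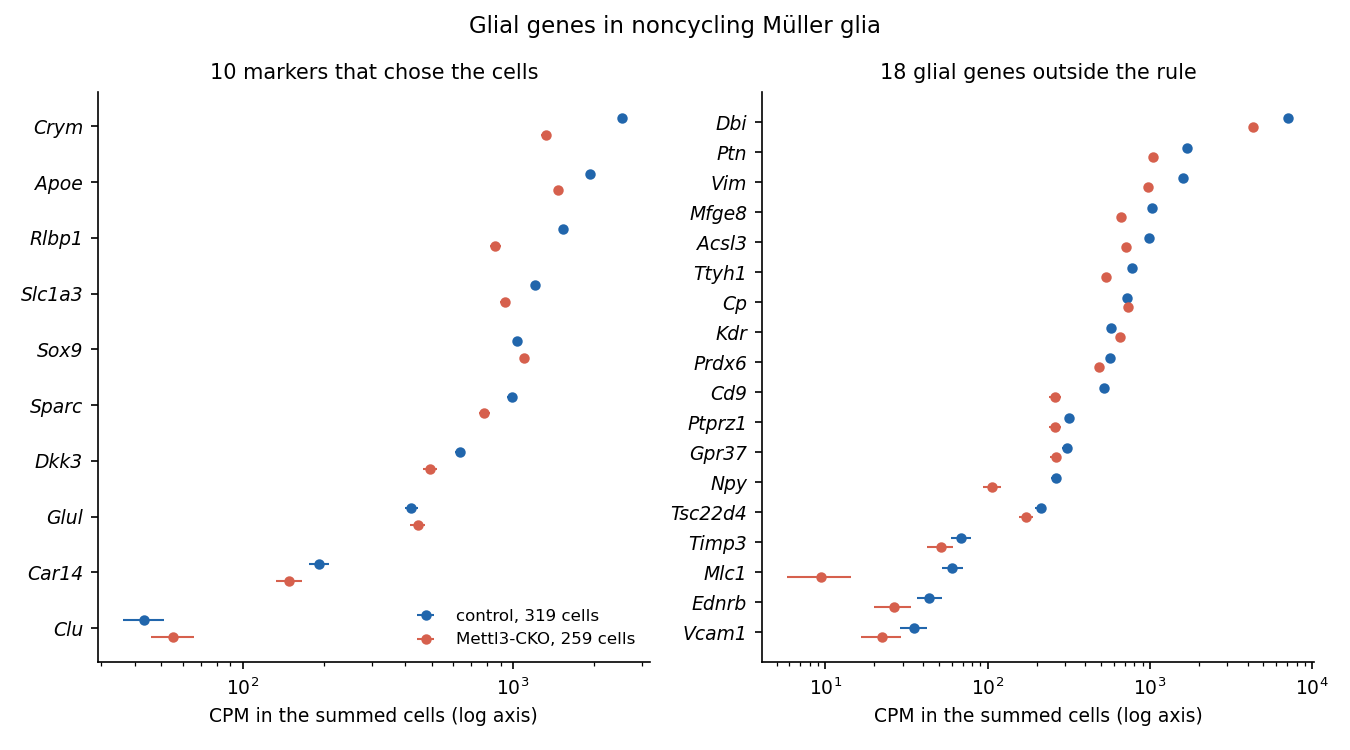
Level of 10 glial genes that chose the cells and of 18 glial genes outside the rule in 319 control (blue) and 259 Mettl3-CKO (red) noncycling Müller glia, in CPM on a log axis, with 95% Poisson intervals for counting error. Most red points lie left of the blue ones, Rlbp1, Crym, Dbi, Vim, Cd9 and Npy among them, whereas Glul, Sox9, Cp and Kdr lie close together.

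The lower glial level was seen through most of the Mettl3-CKO members. At 2000 UMIs per cell, the glial genes outside the rule gave a median of 35 UMIs (quartiles 25 and 43) in control and 22 UMIs (16 and 29) in Mettl3-CKO members. Of the Mettl3-CKO members, 87.6% were below the control median, 94.9% of those with Xist and 79.5% of those without. At the same depth Rlbp1 was detected in 85.3% of control and 68.7% of Mettl3-CKO members (95.3% and 90.0% at full depth) and in 2.11% and 0.88% of rods. Crym was detected in 87.8% and 72.2% of members (93.7% and 89.2% at full depth) and in 3.63% and 1.65% of rods. Rods were chosen for holding few of the glial genes of the rule, so low detection of Rlbp1 and Crym in them follows from that choice.

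Among 13 genes of ion, water and nutrient transport, 11 passed the count minimum, 9 were lower and 3 at least 2-fold lower, with a median of -0.31. The median was -0.17 with Xist, -0.36 without and -0.07 over the 8 genes that passed the minimum in core members. Of the genes that were at least 2-fold lower, the bicarbonate cotransporter Slc4a4 (-1.17) had 37 and 25 UMIs in core members and the sodium pump subunit Atp1b1 (-2.03) had 0 and 2, too few for a ratio there. Car2, a carbonic anhydrase, stood at 733 CPM in control and 553 CPM in Mettl3-CKO members, a log2 ratio of -0.41. Kcnj10, the potassium channel through which mature Müller glia siphon potassium, was low at 24.7 and 40.5 CPM and higher in the Mettl3-CKO members (0.71, 0.25 to 1.18). The water channel Aqp4 had 3 and 5 UMIs, so that this mark of mature Müller glia was barely present in either library.

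Genes of glycolysis, the pathway by which Müller glia make the lactate they release, were lower as a group. All 16 passed the count minimum, 14 were lower and 1 at least 2-fold lower, with a median log2 ratio of -0.42 in members and -0.48 in core members. It was -0.30 in members with Xist and -0.47 in those without, -0.17 in cycling and -0.38 in neurogenic glial marker cells and -0.20 in rods. Enolase Eno1 stood at 3068 CPM in control and 2137 CPM in Mettl3-CKO members (-0.52), the lactate dehydrogenase Ldha at 1473 and 1089 CPM (-0.44) and the kinase Pgk1 at 918 and 664 CPM (-0.47). Pfkp, a subunit of phosphofructokinase, stood at 205 and 118 CPM, a log2 ratio of -0.80 (-1.01 to -0.59). The glial aldolase Aldoc stood at 233 and 86.4 CPM (-1.43, and -0.84 in core members). Gapdh differed less, at 3421 and 2874 CPM (-0.25), and the hexokinase Hk2, a low gene at 24.4 and 30.7 CPM, was higher (0.33). Per cell at 2000 UMIs, the median of the group was 30 UMIs in control and 21 in Mettl3-CKO members, and 73.7% of the latter were below the control median.

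Of 16 actin regulators, 15 were lower, by a small amount, with a median of -0.22. The actin-sequestering Tmsb10 stood at 1959 and 1398 CPM (-0.49) and the GTPase Rhoa at 430 and 325 CPM (-0.40), whereas the actin genes were near equal (Actb -0.08, Actg1 0.00). Genes of the outer limiting membrane junctions, the contacts that Müller glia form with photoreceptors, had a median of 0.03 over 10 genes, with 5 higher and 5 lower. It was -0.16 in core members, with 7 of 10 lower, and 0.06 with Xist and -0.09 without. Cholesterol genes had a median of 0.02 over 13 genes and of -0.17 over 10 genes in core members. Over 4 genes of retinoid handling the median was 0.13, with -0.28 in members with Xist and 0.41 over 3 genes in those without. None of these 3 lists kept 1 direction over the subsets. Extracellular matrix genes had a median of 0.03 over 7 genes, which was -0.26 over 5 genes in core members, -0.36 over 4 genes with Xist and -0.05 without. The 83 ribosomal protein genes had a median of 0.09.

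**Figure D2:**
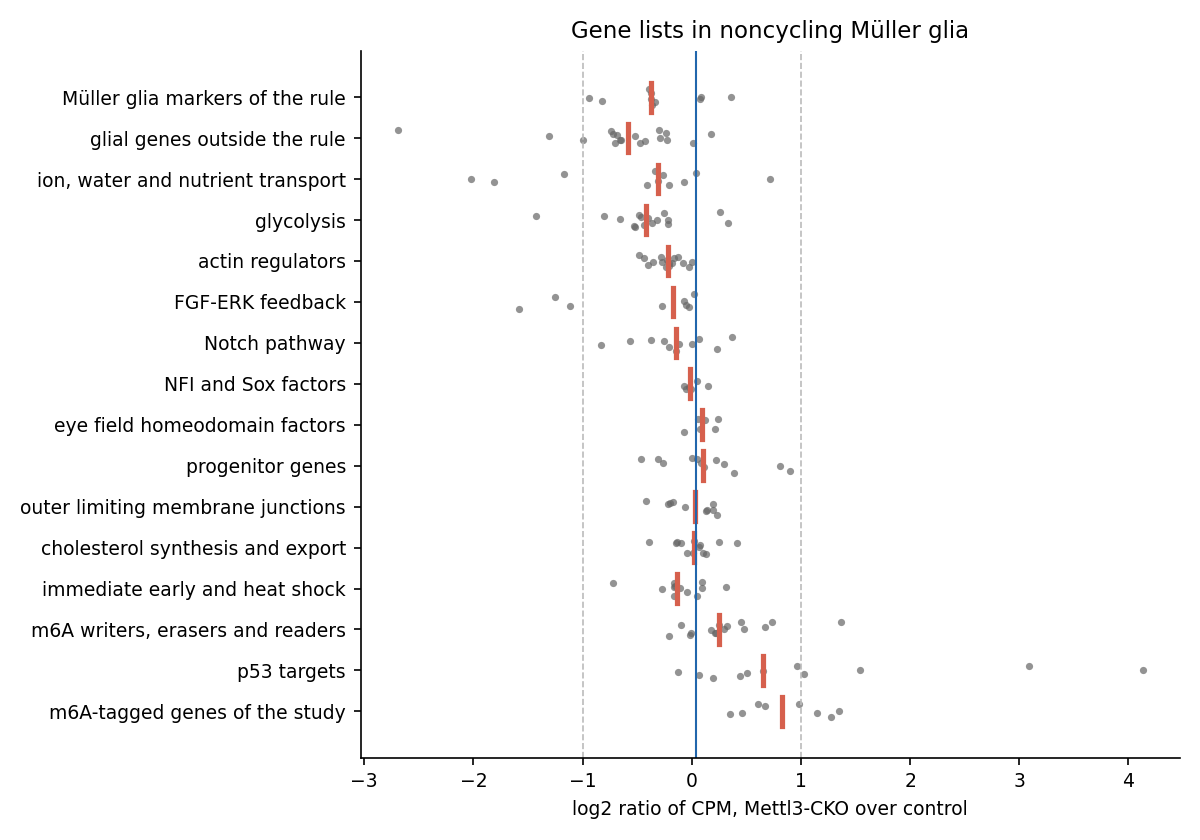
Log2 ratio of Mettl3-CKO over control noncycling Müller glia for each gene (points) of 16 gene lists, with the median of each list as a red bar, the median of all 7270 genes compared as a blue line and 2-fold differences dashed. Glial genes and glycolysis lie to the left of the blue line, and p53 targets and m6A-tagged genes to its right.

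Among the highest ratios were those of targets of p53, the transcription factor that is stabilised after DNA damage and other stress. Of 18 listed targets 11 passed the count minimum, 10 were higher and 4 at least 2-fold higher in Mettl3-CKO members, with a median of 0.65. The median was 0.70 in core members, 0.47 with Xist and 0.83 without. In cycling glial marker cells it was 0.37, in neurogenic ones 0.41 and in rods 0.11, differences that were not tested.

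Cdkn1a, the inhibitor of cyclin-dependent kinases known as p21 (chromosome 17, 29090976 to 29100727), had 41 UMIs in 17 control members and 538 UMIs in 68 Mettl3-CKO members. Its level was 13.7 CPM (9.83 to 18.6) and 240 CPM (220 to 261), a fold of 17.5 and a log2 ratio of 4.13 (3.67 to 4.62). This was the highest ratio of all genes that the naming rule allowed, and it was 3.23 with Xist, 4.76 without and 4.74 in core members. At 2000 UMIs per cell Cdkn1a was detected in 2.51% of control and 20.8% of Mettl3-CKO members (5.33% and 26.3% at full depth), and in 2.95% and 6.27% of rods. The control members were thus at the level of control rods, and most Mettl3-CKO members had no Cdkn1a UMI. The log2 ratio was 1.09 in cycling glial marker cells and 1.92 in rods.

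Phlda3, an inhibitor of AKT signalling, had 30 UMIs in control and 192 in Mettl3-CKO members, 10.0 and 85.5 CPM, a log2 ratio of 3.09 (2.53 to 3.70). Ccng1, a cyclin that acts back on the p53 pathway, stood at 17.0 and 49.4 CPM (1.54), the RNA-binding protein gene Zmat3 at 30.4 and 61.9 CPM (1.03) and the stress-induced Trp53inp1 at 21.04 and 41.0 CPM (0.96). Smaller differences were found in Bax, a mediator of apoptosis, at 172 and 245 CPM (0.51), the antiproliferative gene Btg2 at 728 and 991 CPM (0.44) and Mdm2, which encodes the ubiquitin ligase of p53, at 52.4 and 60.1 CPM (0.20). Rrm2b, a ribonucleotide reductase subunit, was slightly lower (-0.12). Below the count minimum, the death receptor genes Eda2r had 1 and 20 UMIs and Fas 0 and 10 UMIs.

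The promoters of the listed p53 targets were searched for the letters that p53 is known to bind, and those of 2 targets at least 2-fold higher are shown. In RefSeq windows of GRCm38.p6 that run from 250 bases before to 50 bases after each start, the p53 half-site was found on its own in 2745 of 32851 windows (8.36%), on both strands. A pair of half-sites side by side with at most 1 letter off was found in 29 windows (0.0883%). Of the 18 targets 14 had a window, 6 had a half-site and 2, Cdkn1a and Ccng1, held the pair. The 250 bases before the start are printed for these 2 genes from 5′ to 3′ on the strand of the gene, with the pair of half-sites in capitals.
Cdkn1a, chr17:29090729-29090978, plus strand: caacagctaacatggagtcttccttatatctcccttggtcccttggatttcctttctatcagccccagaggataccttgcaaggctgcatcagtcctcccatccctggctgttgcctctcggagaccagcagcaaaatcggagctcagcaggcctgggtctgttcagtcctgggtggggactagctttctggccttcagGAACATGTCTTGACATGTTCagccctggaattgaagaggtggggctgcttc
Ccng1, chr11:40755287-40755536, minus strand: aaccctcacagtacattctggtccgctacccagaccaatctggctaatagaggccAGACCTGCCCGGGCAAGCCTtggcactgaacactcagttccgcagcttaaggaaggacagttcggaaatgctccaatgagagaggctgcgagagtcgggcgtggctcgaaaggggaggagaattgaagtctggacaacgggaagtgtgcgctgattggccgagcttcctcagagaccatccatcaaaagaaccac
The match in Cdkn1a runs from 51 to 32 bases before the start, in 1 of the 2 annotated windows of the gene, and that in Ccng1 from 195 to 176 bases before. A match describes the letters of the window and is not evidence of binding in these cells, and a window without one says only that these letters were not in it.

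The Cdkn1a counts were unevenly spread over the Mettl3-CKO members. When all members were clustered with the p53 targets, the m6A-tagged genes, the genes of the rule and the sex-linked genes kept out, 8 clusters were found, and cluster 2 held 98 Mettl3-CKO members (37.8%) and 3 control members (0.94%). With 1 library per group, a cluster mostly of 1 library may be that library and not a type of cell, and other genes that define clusters can differ between the libraries. Genes that led the cluster included Cdkn1a, Phlda3, Serpine2, Ddit4l and the matrix protease Mmp2. It held 57 members with Xist (41.6% of those) and 41 without (33.6%), and 85 of its 98 Mettl3-CKO members were core members. Its Mettl3-CKO cells had a median of 8079.5 UMIs and 3.28% mitochondrial UMIs, against 8305 UMIs and 3.57% in the other 161 Mettl3-CKO members and 8978 UMIs and 3.87% in control members. The number of 98 Mettl3-CKO cells was also found at the clustering resolutions 0.5 and 1.2, with 3 and 2 control cells, settings added after the data were seen.

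Within cluster 2, Cdkn1a stood at 546 CPM, against 58.8 CPM in the other Mettl3-CKO members and 13.7 CPM in control members. Phlda3 stood at 177, 31.2 and 10.0 CPM, Ccng1 at 89.9, 25.5 and 17.0 CPM and Zmat3 at 115, 30.5 and 30.4 CPM in the same order. Btg2 had another order, with 853, 1073 and 728 CPM. At 2000 UMIs per cell Cdkn1a was detected in 44.9% (34.8 to 55.3) of the cluster, 6.21% of the other Mettl3-CKO members and 2.51% (1.09 to 4.88) of control members. The median log2 ratio of the p53 targets over control was 1.10 in the cluster and 0.30 in the other Mettl3-CKO members.

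The lower glial program was not limited to that cluster. The glial genes outside the rule had a median of -0.68 in cluster 2 and -0.45 in the other Mettl3-CKO members, and glycolysis had -0.66 and -0.28. Neither list was kept out of the clustering. The other Mettl3-CKO members also held more transcripts of other cell types. Rod markers had medians over control of -2.67 in cluster 2 and 1.10 in the others, and precursor genes of -3.01 and 0.60. The part of other cell types in the glial and glycolysis medians was not tested. The 10 genes of the rule had medians of -0.07 and -0.51, a different order. Progenitor genes had -0.07 and 0.28, and all genes compared had 0.01 and 0.04.

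**Figure D3:**
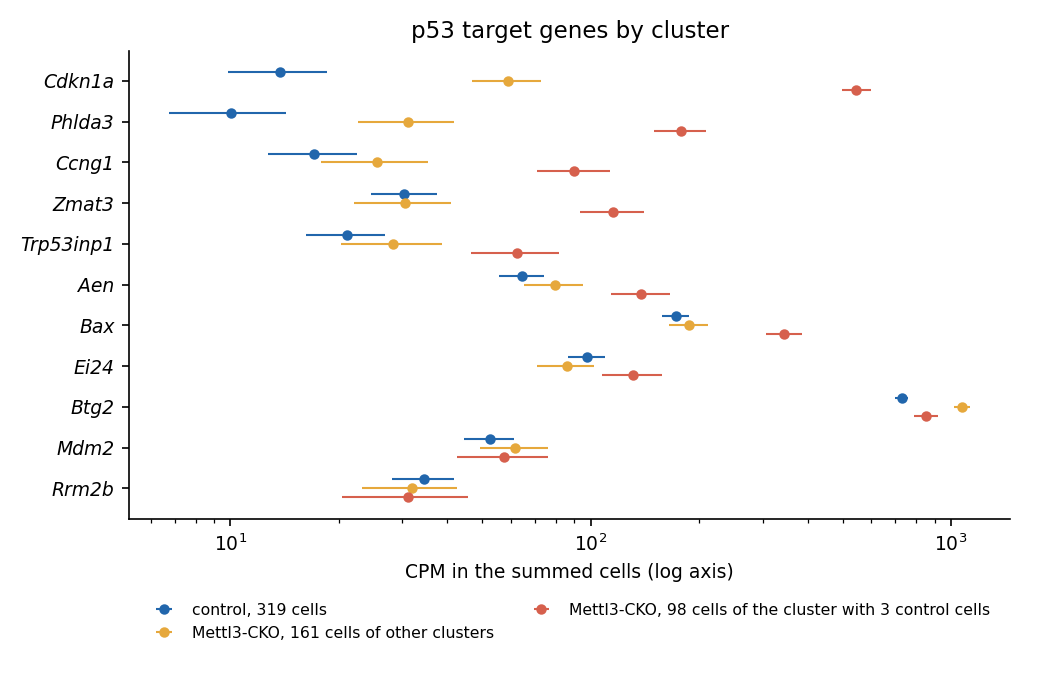
Level of 11 p53 targets in 319 control members, 161 Mettl3-CKO members outside cluster 2 and 98 Mettl3-CKO members within it, in CPM on a log axis with 95% Poisson intervals for counting error. Cdkn1a, Phlda3, Ccng1 and Zmat3 are highest in the cluster, whereas Btg2 is not.

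**Figure D4:**
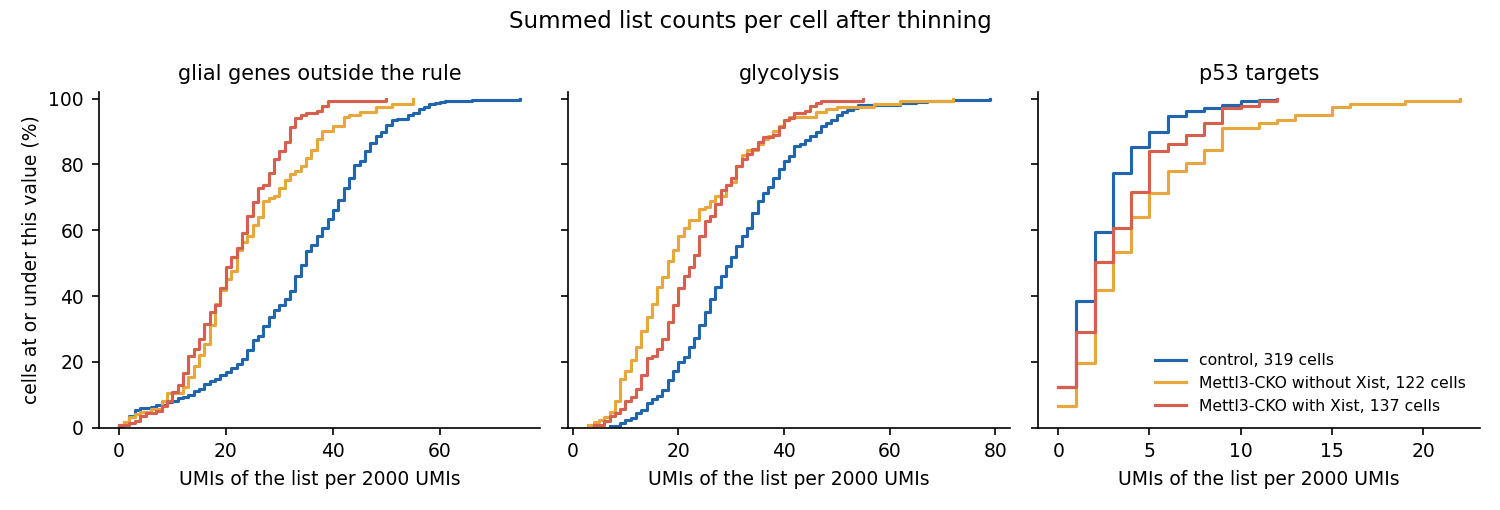
Cumulative percent of noncycling Müller glia by the UMIs of a gene list in each cell at 2000 UMIs per cell, for glial genes outside the rule, glycolysis and p53 targets, in control members and Mettl3-CKO members without and with Xist. Both Mettl3-CKO curves lie to the left of control for glial genes, with medians of 22 and 21 against 35 UMIs. For p53 targets the highest cell has 22 UMIs without Xist, and 12 UMIs both with Xist and in control.

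The other clusters held both libraries in unequal numbers. Cluster 1, led by Npy, Flt1 and Vcam1, held 84 control and 17 Mettl3-CKO members, and cluster 0, led by Ppp1r17 and Mapt, held 109 and 36. Cluster 3, led by the neurogenic factors Neurod1 and Neurod4, held 44 and 33, and cluster 4, led by the Notch ligand Dll1 and Hes6, held 30 and 37. In cluster 4, 59 cells were core members. Cluster 5, led by the replication genes Pole2 and Mcm5, held 16 and 24, and cluster 7, led by Gfap, S100b and Pax2, held 12 and 3. Cluster 6, with 21 and 11 cells, had a low median of 3270 UMIs, and all of its 11 Mettl3-CKO cells were without Xist. The sizes describe how the cells grouped and are not compared between the conditions, since the defining genes, Npy among them, differed between the libraries.

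Genes that the study reported as m6A-tagged were higher in Mettl3-CKO members. The 8 genes were chosen by the study on these samples as higher in its mutant clusters of RPCs and Müller glia. Their direction is therefore not independent evidence. All 8 were higher, 3 of them at least 2-fold, with a median of 0.83 in members, 0.75 with Xist, 0.93 without, 1.02 in core members, 0.64 in cycling glial marker cells and 0.51 in rods. Zfp292, a zinc finger protein gene, stood at 188 CPM in control and 480 CPM in Mettl3-CKO members, a log2 ratio of 1.35 (1.2 to 1.5). At 2000 UMIs per cell it was detected in 23.8% and 51.0% of members and in 32.0% and 35.9% of rods, which express the gene too. Nxt1, a factor of mRNA export, stood at 38.7 and 93.9 CPM (1.28), the sulfatase gene Sulf2 at 25.1 and 55.7 CPM (1.15) and Ckap4, an anchor of the endoplasmic reticulum, at 231 and 457 CPM (0.98). The DNA repair endonuclease Apex1 (0.60) and the chromatin remodeller subunit Bcl7a (0.35) differed less.

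These genes were also uneven over the Mettl3-CKO members. Zfp292 stood at 794 CPM in cluster 2, 295 CPM in the other Mettl3-CKO members and 188 CPM in control members, Ckap4 at 797, 256 and 231 CPM and Sulf2 at 115, 20.5 and 25.1 CPM. The median of the list over control was 1.44 in the cluster and 0.14 in the other Mettl3-CKO members. Neither these genes nor the p53 targets had been used to form the cluster.

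Of 16 writers, erasers and readers of m6A 15 passed the count minimum, 11 were higher and 1 at least 2-fold higher, with a median of 0.25. With Xist 13 of 15 were higher, with a median of 0.38, and without Xist 8 of 14, with a median of 0.05, beside 3571 of 6499 and 3220 of 6276 of all genes. Rbm15, an adaptor of the writer complex, stood at 33.1 CPM in control and 85.5 CPM in Mettl3-CKO members, a log2 ratio of 1.37 (1.01 to 1.74). The nuclear reader Ythdc1 stood at 143 and 228 CPM (0.67) and the cytoplasmic reader Ythdf1 at 55.8 and 92.6 CPM (0.73). Mettl14, the partner of METTL3, differed by 0.25 on the log2 scale.

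Transcription factors of glial fate had medians closer to that of all genes. Over NFI and Sox factors, which act in the onset of gliogenesis, the median was -0.02 (6 genes), and over the eye field homeodomain factors it was 0.10, with Six3 at 928 and 1099 CPM (0.24) and Rax at 684 and 793 CPM (0.21). Notch genes, which hold cells in the progenitor and glial state, had a median of -0.14 over 11 genes, which was -0.01 with Xist and -0.21 without. The effector Hes5 stood at 2824 and 2372 CPM (-0.25) and Hes1 at 790 and 930 CPM (0.24), so these 2 effectors differed in direction. Hey1 was lower at 44.4 and 24.9 CPM (-0.83), as was the Notch feedback gene Nrarp at 283 and 219 CPM (-0.37).

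Progenitor genes had a median of 0.10 over 12 genes, of which 9 were higher. With Xist 6 of 12 were higher, with a median of 0.01, without Xist 10 of 12, with 0.17, and in core members 7 of 11, with 0.07, so the list as a whole was near the background of all genes. Sox11, a factor of immature neural cells, stood at 152 CPM in control and 284 CPM in Mettl3-CKO members, a log2 ratio of 0.90 (0.73 to 1.08), and its relative Sox12 at 28.4 and 49.9 CPM (0.81). At 2000 UMIs per cell Sox11 was detected in 25.4% and 33.6% of members and in 3.32% and 5.5% of rods. Ccnd1, the cyclin of the G1 phase, stood at 1456 and 1902 CPM (0.39). Sox4 was near equal (0.01) and the chromatin protein gene Hmga1 lower (-0.46). Cdkn1b, which encodes the cell cycle inhibitor p27, stood at 225 and 167 CPM (-0.44), opposite to Cdkn1a. Ccnd2 (-1.75) came from 18 and 11 cells and had 5 and 14 UMIs in core members, so no direction is given for it. Over the cyclins and cell cycle exit genes the median was -0.04, and over the 6 replication genes that passed the minimum, on the list added later, it was 0.44, with 0.69 over 5 genes with Xist and 0.11 over 3 genes without. Core members leave out cells with at least 5 replication genes, and there only 1 gene of the list passed the minimum, at 0.27.

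Of 8 genes of FGF-ERK feedback, with a median of -0.17, 3 were at least 2-fold lower. The median was -0.14 with Xist, -0.41 without and -0.28 over 7 genes in core members. Phlda1, a growth factor-induced gene, stood at 112 and 37.4 CPM (-1.59, and -1.47 in core members). The feedback inhibitor Spry1 stood at 72.1 and 30.3 CPM (-1.25, and -0.62 in core members) and the phosphatase gene Dusp10 at 35.7 and 16.5 CPM (-1.12). Id1, an inhibitor of neurogenic factors, stood at 628 and 398 CPM (-0.66) and the feedback gene Smad7 at 34.1 and 65.0 CPM (0.93), within a list of Id, BMP and Wnt modulators whose median was -0.05. Immediate early and heat shock genes, which papain digestion can induce, had a median of -0.13 over 12 genes, with Fos at -0.16. Of the 12 genes of reactive glia 4 passed the minimum and all 4 were higher, 2 of them with an interval above 0. Of all 7270 genes compared, 4038 were higher and 1221 had an interval above 0. Their median was 0.36, Cebpd being the highest (1.23). Gfap, also on this list, was under the minimum and had fewer UMIs in Mettl3-CKO members, as given above.

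From the whole table, 10 genes at the top and 10 at the bottom of the ratios were taken by a fixed rule that asked for detection in at least 10% of the members of 1 library and the same direction with and without Xist. Besides Cdkn1a, Phlda3 and Ccng1, the highest included Ddit4l, an inhibitor of mTOR signalling, at 17.0 and 93.1 CPM (2.45, 2.00 to 2.92), and the secreted protease inhibitor Serpine2 at 43.8 and 183 CPM (2.06, 1.78 to 2.36). Adgrb2, an adhesion receptor, stood at 10.7 and 33.8 CPM (1.66), Lsm10, of the histone mRNA processing complex, at 20.04 and 63.2 CPM (1.66), the calcium channel gene Cacna1i at 26.1 and 79.7 CPM (1.61) and Ahdc1 at 16.4 and 47.6 CPM (1.54). Apart from Serpine2 these were low genes in control members. Serpine2 stood at 398 CPM in cluster 2, 55.9 CPM in the other Mettl3-CKO members and 43.8 CPM in control members, and Ddit4l at 187, 37.5 and 17.0 CPM. Unlike the p53 targets, Serpine2 and Ddit4l were not kept out of the clustering. Their levels in cluster 2 are therefore a description of it.

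The lowest genes included several whose counts came from few cells. Cst3, a secreted protease inhibitor, stood at 1987 and 663 CPM (-1.58), yet 49.0% of its control UMIs were in 5 cells and its log2 ratio in core members was -0.25. Crip1 stood at 267 and 76.1 CPM (-1.81), with 69.7% of its control UMIs in 5 cells and -0.03 in core members. Mt3, a metallothionein (-1.77), had 58 and 26 UMIs in core members, the channel subunit Kcnmb4 (-1.59) 39 and 18 and the hypoxia-inducible factor Epas1 (-1.51) 47 and 25, under the count minimum. The ratios of 2 others changed less in core members, namely Ddah1, which degrades inhibitors of nitric oxide synthase, at 162 and 43.2 CPM (-1.91, and -1.31 in core members) and Phlda1. The secreted BMP and Wnt modulator Sostdc1 stood at 41.8 and 12.5 CPM (-1.74). The iron carrier Trf stood at 44.8 and 14.2 CPM (-1.65) and the secretory granule protein gene Pcsk1n at 38.7 and 13.4 CPM (-1.54). Of these 20 genes 8 overlap another annotated gene, and whether counting used strand is not given in the sources used here.

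**Figure D5:**
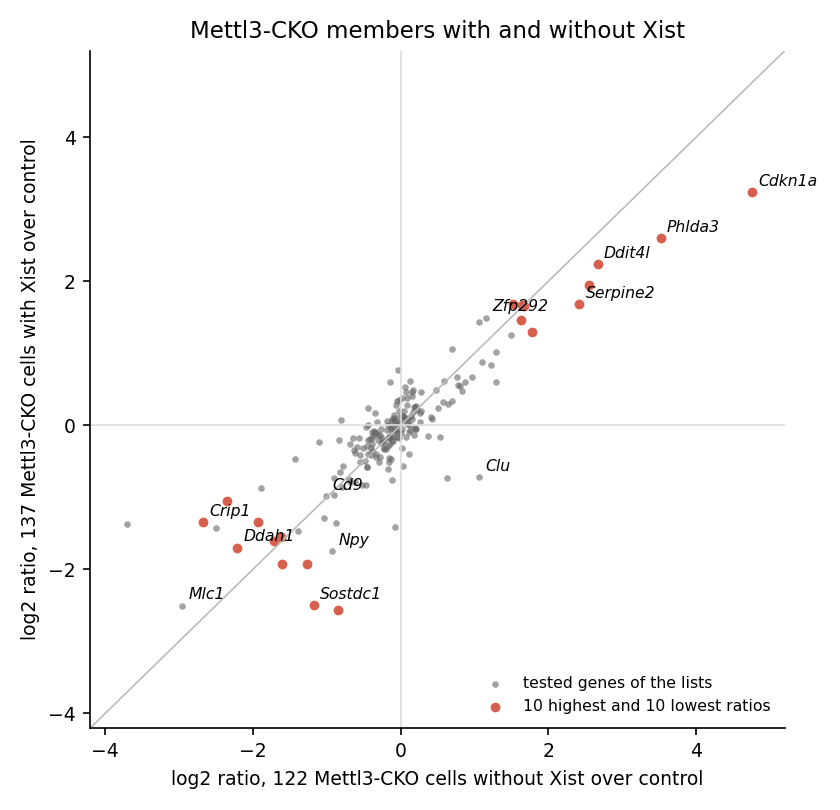
Log2 ratio over the same control members for 199 genes of the lists, in Mettl3-CKO members without Xist (horizontal axis) and with Xist (vertical axis), with the 20 genes of highest and lowest ratio in red. Cdkn1a lies at 4.76 and 3.23 and Phlda3 at 3.52 and 2.60, and the shared control adds the same counting error to both axes.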

How the data were processed

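Single-cell libraries were made from papain-digested p7 retinas with the 10x Genomics 3′ V3.1 kit, 1 control and 1 Mettl3-CKO library. Reads were cleaned with fastp by the authors, and Cell Ranger 3.1.0 aligned them to mm10 (GRCm38) and made the UMI matrices. Seurat 3.1 is also named in the submitters' processing notes. The deposited matrices hold UMI counts without normalization. The matrices used here end before the number of entries they state, so 3994 of 5995 control and 3109 of 6992 Mettl3-CKO barcodes were complete, and all further cells were not analysed here.

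Counts of the 13 mitochondrial genes were left out of totals. Members were selected by the rule given in the report. The members and gene lists were chosen with earlier results of these data known. UMIs were summed over the members of each library and divided by the total to give CPM. Intervals were exact Poisson for CPM, conditional binomial for ratios, Clopper-Pearson for shares and Katz for ratios of shares, at the 95% level. Ratios were described for genes with at least 100 UMIs over both libraries, and a count of 0 was set to 3. Shares of cells with a UMI were taken after thinning each cell to 2000 UMIs. Genes of the lists were named with their values, and in addition the 10 highest and 10 lowest ratios that passed the count minimum, were detected in 10% of members or more in 1 library, and kept their direction with median-of-ratios scaling and in Mettl3-CKO members with and without Xist. Mitochondrial, sex-linked and predicted genes were excepted, and values of a few genes that the rules allow are not reported here.

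For clustering, counts were scaled to 10000 per cell, and 2000 variable genes, 15 principal components and 15 neighbours were used at Leiden resolution 0.8 (scanpy 1.11.5, leidenalg 0.10.2). Doublets were not removed from the main result. Scrublet marked 3 of 3994 control cells (0.0751%) and 7 of 3109 Mettl3-CKO cells (0.225%), too few for a working call, so the 5% of cells with the highest score were left out as an alternative added after seeing the data, as were the core members, the added lists and the other clustering resolutions. Python 3.11.15, numpy 2.4.6, scipy 1.17.1 and pandas 2.3.3 were used, and the scripts were tested on simulated data.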

Additional observations from a re-analysis of the deposited data

How the results depend on the processing

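No paired analysis was possible because each group held 1 library. Gene counts moved with the filter: 167 genes were at least 2-fold higher and 118 lower at a minimum of 50 UMIs, 9 and 21 at 300 UMIs and 1830 and 1417 at 1 UMI, where low counts enter by construction. The 2-fold lower genes numbered 40 in members without any cell cycle gene of the rule, 32 with the rule applied after thinning and 27 in core members. The share ratio was 1.2 with Mettl3-CKO cells without Xist only. The median of the glial genes of the rule was -0.48 with Xist and -0.23 without. Glycolysis had -0.26 with the rule after thinning and -0.30 with Xist, and retinoid handling -0.28 with Xist. Extracellular matrix had -0.24 without cell cycle genes, -0.36 with Xist, -0.26 in core members and -0.25 at 300 UMIs, opposite in sign to its main median. The cause of these shifts was not tested. The median-of-ratios scaling shifted all log2 ratios by -0.04. None of the 20 genes of highest and lowest ratio changed sign under 12 alternatives. This was partly set in advance, since they were chosen for extreme ratios. They also had to keep their direction with median-of-ratios scaling and both with and without Xist. Leaving out the cells of highest doublet score gave a share ratio of 0.954, 76 higher and 64 lower genes. Depth limits genes below about 30 CPM, and no alternative stands in for a second library.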

Other observations

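Of the 7270 genes compared, 7167 (98.6%) had a protein-coding transcript in the annotation, in which the sequence GGACT, the common core of m6A sites, was counted. Over the quartiles of this count, from few to many, the median log2 ratio of Mettl3-CKO over control noncycling Müller glia was -0.02, 0.02, 0.04 and 0.10. The share of genes at least 2-fold higher was 0.418%, 0.736%, 0.479% and 1.47% in the same order, and that of genes at least 2-fold lower 0.835%, 1.23%, 0.745% and 0.753%. Over quartiles of copies per 1000 bases the medians were 0.01, 0.06, 0.05 and 0.04, with no steady order. Over quartiles of transcript length the medians were -0.00, -0.01, 0.05 and 0.12, so that longer transcripts, which hold more copies of GGACT, had the higher ratios too. Genes with fewer and with more copies were then compared within 3 classes of length, from short to long. The medians were -0.02 and 0.02, 0.00 and 0.04, and 0.10 and 0.13. The classes ran from 371 to 2247, 2248 to 4134 and 4135 to 123179 bases, so length still varied within each and was not matched. Within each class the difference was 0.04 or less. Genes are not independent replicates, and no test was made.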
